A study of Mus musculus with 419 samples.

Results

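The cells compared here are the 105 mouse embryonic stem cells with the most and the 105 with the least mitochondrial messenger RNA, out of 419 single cells. Each cell's ratio was the sum over the 13 protein-coding genes of the mitochondrial chromosome, divided by the sum over autosomal genes, and given in percent. The cells were chosen by this ratio alone: ranked by it, they were divided into 4 groups of 105, 105, 104 and 105, of which the last is called mt-high and the first mt-low here. The ratio was 0.893% ± 0.310 (SD over 105 cells) in mt-low cells and 1.70% ± 0.157 in mt-high cells, with a median of 1.34% over all cells. At the lower limit the last cell inside had 1.18% and the next cell outside also 1.18% after rounding, and at the upper limit the first cell inside and the last outside both had 1.54%. The limits cut through a continuous range, and the ratio itself only describes how the groups were made. Nuclear genes of the same cells are described with no test.

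The mitochondrial genome encodes core subunits of respiratory complexes I, III and IV and of ATP synthase, its own ribosomal RNAs and its transfer RNAs. It is read from both strands as long transcripts that are cut into single RNAs, which the LRPPRC and SLIRP proteins stabilise. All other respiratory chain subunits, and the proteins that copy, transcribe and translate mitochondrial DNA, are encoded in the nucleus and imported. Embryonic stem cells rely strongly on glycolysis and also respire.

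The series measured the expression of both alleles in single cells by RamDA-seq, which reads total RNA over whole transcripts, to study transcriptional bursting. All cells shared 1 genotype, 1 medium and 1 phase: they are in G1 and come from the female hybrid line F1-21.6 (129Sv-Cast/EiJ), grown on Laminin-511 without feeders in medium with 15% serum and leukemia inhibitory factor. The 2 groups thus differ by no treatment, and 1 line stands for the cell type. Because no culture, animal or other replicate is named in the labels, all cells counted as 1 sample. The error given for a fold is the SD over the 5 sequencing lanes, which may be technical. Levels are the authors' scaled values of both alleles, summed over the transcripts of a gene, in parts per 1000000 of the cell's autosomal total (ppm). The authors' scaled total per cell ran from 698363 to 1477656, and the depth in reads is unknown.

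The groups were not spread evenly over the lanes. Lane 6 held 40 cells of the mt-low group and 7 of the mt-high group, while lanes 2 to 5 held 14 to 21 and 22 to 28. The median ratio was 1.19% in lane 6 and 1.35% to 1.39% in the other lanes. Transcripts above 0 numbered 29401 ± 1599 (SD over 105 cells) in mt-low and 28934 ± 1340 in mt-high cells, and rows of nuclear ribosomal RNA took 14.8% ± 2.65 and 15.4% ± 2.49 of the total. Markers of embryonic stem cells were present in both groups: Pou5f1, a core pluripotency factor, had medians of 388 and 395 ppm in mt-low and mt-high cells, Sox2 75.0 and 92.2, and Nanog 320 and 386. Pou5f1 was below 50 ppm in 10 of 105 cells of the mt-low group, in 5 of 105 mt-high cells and in 3 of the 209 cells between, a limit chosen after its values were seen.

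Several rows on chromosome 1 carry copies of mitochondrial genes, and their sequences show why their values belong beside the mitochondrial ones. In the GENCODE vM21 transcripts on build mm10, Gm28661 (chr1:24614885-24615565, minus strand, an unprocessed pseudogene) matched mt-Co2 over 681 bases with 0 differences. Gm10925, Gm28437 and Gm10222 matched mt-Atp6, mt-Co3 and mt-Nd4l over 678, 783 and 294 bases, also with 0 differences. Gm29216 (chr1:24615706-24616197, minus strand) differed from mt-Co1 at 6 of 492 bases. The first 60 bases of each copy are shown with the matching stretch of the mitochondrial gene, in lower case, with capitals at the bases that differ.
Gm28661: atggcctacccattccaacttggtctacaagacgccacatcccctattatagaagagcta
mt-Co2: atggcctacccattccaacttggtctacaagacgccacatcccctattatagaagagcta
Gm29216: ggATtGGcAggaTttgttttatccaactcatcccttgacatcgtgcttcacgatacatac
mt-Co1: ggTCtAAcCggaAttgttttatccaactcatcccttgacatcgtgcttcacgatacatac
In this reference the first pair cannot be told apart by sequence, so values of such rows are uncertain between the chromosome 1 copy and the mitochondrial gene. The 129 and CAST sequences were not compared. The copies had nearly all of their values in the 129 table (99.97% for Gm28661, 99.98% for Gm29216), whereas rows of the mitochondrial chromosome hold values in the CAST table alone. The copies did not enter the ratio.

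Among the genes that made the ratio, mt-Co1 (chrM:5328-6872), the catalytic subunit of complex IV, contributed most. It ranged from 5.64 through a median of 3743 to 4779 ppm in mt-low cells, and from 4872 through 5967 to 7783 in mt-high cells. The ranges did not overlap, but mt-Co1 makes up 35.9% of the sum by which the cells were chosen. For mt-Nd1, a complex I subunit, the lowest, median and highest values were 1.41, 1155 and 1935 ppm in mt-low cells and 1464, 2021 and 3097 in mt-high cells, and these ranges overlapped. Per kilobase of gene, mean levels over all cells ran from 3069 ppm for mt-Co1, through 1684 for mt-Nd1, 1600 for mt-Co2 and 964 for mt-Cytb, the cytochrome b of complex III, down to 220 for mt-Nd6, the subunit encoded on the minus strand, and 15.4 for mt-Nd3. The fold of the group means ran from 1.79 for mt-Co1 to 2.93 for mt-Nd4l. Across cells the 13 genes were correlated in pairs with Spearman's rho from 0.21 to 0.80 (median 0.50 of 78 pairs, n = 419, all values of a pair from the same library), so cells high in one of these genes were often, but not always, high in the others.

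The 2 mitochondrial ribosomal RNAs were not used by the ratio, although they come from the same libraries and the same genome. mt-Rnr1 (chrM:70-1024) had a lowest, median and highest value of 73.3, 13149 and 20428 ppm in mt-low cells and 10666, 20942 and 29557 in mt-high cells. The means differed 1.75-fold (log2 0.81 ± 0.16, SD over 5 lanes), and its rank correlation with the ratio was 0.71 over 419 cells. mt-Rnr2 (chrM:1094-2675) differed 1.71-fold (log2 0.78 ± 0.14). Both were higher in mt-high cells in each of the 5 lanes, with overlapping ranges. The chromosome 1 copies followed: Gm28661 was 1.92-fold and Gm29216 1.62-fold higher in mt-high cells, again in each lane.

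The lower end held 9 cells that stood apart, with ratios from 0.00183% to 0.100%, while the next cells had 0.376%, 0.464% and 0.579%. The limit of 0.2% that sets them off was chosen after the ratios were seen. These near-zero cells came from 4 lanes (1 from lane 2, 2 from lane 3, 4 from lane 4 and 2 from lane 6). Because they belong to the mt-low group, values without them are given below for the counts of calls. They are also given for lists and several genes where leaving these cells out ended a call, turned a direction or moved a value by over 1.5 times. Not every called gene is given without them.

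**Figure D1:**
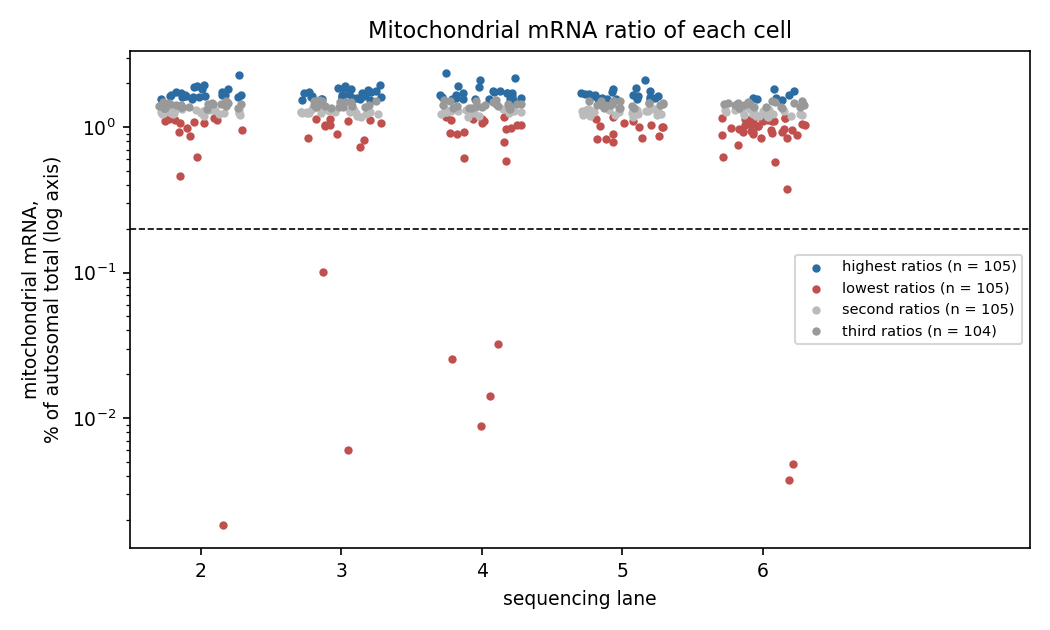
The ratio of each of the 419 cells (vertical log axis, percent of the autosomal total) by sequencing lane (horizontal axis), coloured by group. The dashed line marks 0.2%: 9 cells lie below it, down to 0.00183%, and lane 6 has 40 cells of the mt-low group and 7 of the mt-high group.

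Across nuclear genes the groups differed little. Of 9615 measured nuclear genes (mean of at least 10 ppm and a value above 0 in at least 20% of cells), 128 were called higher in mt-high cells (1.33% of those measured) and 170 lower (1.77%). A call meant that the mean of 1 group was at least 25% above that of the other, with the same direction in each of the 5 lanes, and carries no test. Of the 128 genes, 6 were the chromosome 1 copies. At 1.5-fold the counts were 19 (0.198%) and 54 (0.562%). Over all measured genes the median log2 fold was 0.01, with the 5th percentile at -0.34 and the 95th at 0.27. The 2 allele tables differed in direction for 7 of the 128 and 6 of the 170 genes. The balance of the calls moved with the scaling: 43.0% of calls were higher as reported, 24.3% with the deposited values unscaled and 25.0% with median-of-ratios size factors. With groups drawn within each lane, so that lanes weigh alike in both, 124 genes were called higher and 134 lower, of which 60 of the 128 and 88 of the 170 were the same genes. Without the near-zero cells 113 genes were called higher (1.18%), 86 of them among the 128, and 110 lower (1.14%), 94 of them among the 170. Without the cells under 50 ppm of Pou5f1 the counts were 77 and 163. Without lane 2 or lane 6, 2.10% and 2.44% of measured genes were called higher, and without lane 4, 5.46% were called lower; with a lane left out, the rule asks for 4 lanes.

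Nuclear genes of the respiratory chain were higher in mt-high cells as groups, by small amounts. All 35 measured complex I subunits had a log2 fold above 0 (median 0.16 ± 0.06, SD over 5 lanes), as did the 26 subunits of complexes II to IV (median 0.19 ± 0.05) and 17 of 18 subunits of ATP synthase (median 0.21 ± 0.04), against 52.0% of all measured genes. The medians lay above 0 in each lane, from 0.06 to 0.28, and were 0.13, 0.16 and 0.18 without the near-zero cells. The summed complex I subunits ran from 516 through a median of 1809 to 2355 ppm in mt-low cells and from 1499 through 1979 to 2427 in mt-high cells, so the groups overlapped over most of their range. Few single genes passed the limit of 25%: 2 of 35 in complex I (Ndufb4 and Ndufb3, accessory subunits), 2 of 26 in complexes II to IV and 0 of 18 in ATP synthase. In these lists 0 genes were called lower. Over all measured genes, 1.33% were called higher and 1.77% lower. Short transcripts as a whole were higher: of 5 bins of 1923 genes by transcript length, that of the shortest had a median log2 fold of 0.08 and that of the longest -0.04. Relative to genes of the same transcript length, the medians of these 3 lists were 0.05, 0.13 and 0.11, with 27 of 35, 24 of 26 and 15 of 18 genes above 0. The part of transcript length in the medians was not tested further.

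Uqcrb (chr13:66900617-66905378, minus strand), a small subunit of complex III, stood out among them. Its lowest, median and highest values were 0, 14.0 and 35.3 ppm in mt-low cells and 2.66, 22.6 and 71.6 in mt-high cells. The means differed 1.69-fold (log2 0.76 ± 0.09, SD over 5 lanes), and the groups overlapped. Within lanes the log2 fold was smaller, from 0.43 in lane 5 to 0.64 in lane 2, and with groups drawn within lanes it was 0.45. The 129 alleles gave 1.07 and the CAST alleles 0.45. Uqcrh, the hinge protein of complex III, was called as well, at log2 0.32 ± 0.21, with medians of 56.6 and 73.1 ppm.

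Other mitochondrial groups encoded in the nucleus were higher by less before transcript length was considered. Relative to genes of the same transcript length, complex I was at 0.05, mitochondrial ribosomal proteins at 0.07 and the tricarboxylic acid cycle at 0.11. On that scale the medians of complexes II to IV and ATP synthase were 0.13 and 0.11, and that of protein import 0.04. Of 77 mitochondrial ribosomal proteins, 70 were above 0 (median log2 0.13 ± 0.04) and 2 were called higher, Mrpl14 at 0.50 ± 0.30 and Mrps14 at 0.37 ± 0.20. For this and the following lists of mt-high against mt-low cells, the shares over all measured genes were 1.33% called higher, 1.77% called lower and 52.0% above 0. In the tricarboxylic acid cycle, 21 of 23 genes were above 0 (median 0.13 ± 0.04), and 1 was called, Sucla2, a subunit of succinyl-CoA ligase, at 0.36 ± 0.11. The lists for assembly factors, translation, protein import and protein quality control had medians of 0.08 or 0.09, with Foxred1, a complex I assembly factor, and Timm8b, a small import chaperone, called higher. For genes that act on mitochondrial DNA and RNA, medians were 0.07 for transcription and replication (17 genes) and 0.07 for RNA processing and stability (30 genes), with 0 calls in either direction. Without the near-zero cells the RNA processing median was 0.03 and that of translation 0.05. Slirp, which stabilises mitochondrial mRNA, had medians of 75.6 and 101 ppm and a log2 fold of 0.31 ± 0.21, just under the limit. Tfb2m, a factor of mitochondrial transcription, was at 0.19 ± 0.20.

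The 14 measured regulators of mitochondrial biogenesis had a median log2 fold of 0.01 ± 0.07 (-0.01 without the near-zero cells) with 8 of 14 above 0 and 0 calls; Ppargc1b, a coactivator, was at 0.25 ± 0.10 and Nrf1, a transcription factor of respiratory genes, at -0.15 ± 0.10. Genes of mitochondrial dynamics and mitophagy had a median of -0.00 ± 0.07 (0.02 without the near-zero cells), with 1 of 28 called, Sqstm1, an autophagy receptor, lower at -0.40 ± 0.48. That call was lost without the near-zero cells, where Sqstm1 stood at -0.12. Glycolysis genes had a median of -0.04 ± 0.11 (-0.07 without the near-zero cells), and 2 of 21 were called lower, the lactate transporter Slc16a3 and the glucose transporter Slc2a1.

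**Figure D2:**
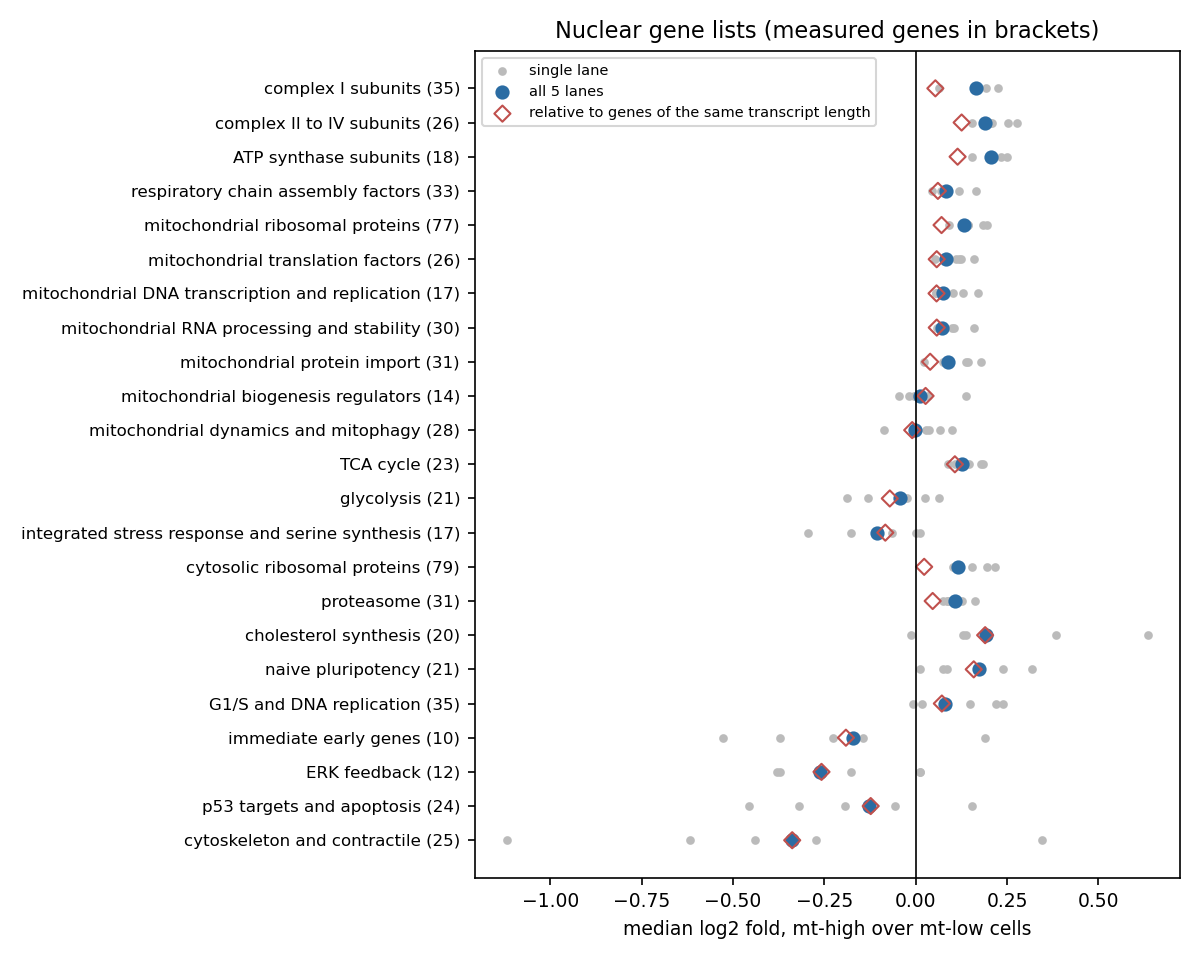
Median log2 fold of nuclear gene lists, mt-high over mt-low cells (horizontal axis), for all cells (filled circles), for single lanes (grey points) and relative to genes of the same transcript length (open diamonds); measured genes per list in brackets. Respiratory chain lists lie at 0.16 to 0.21, and at 0.05 to 0.13 relative to length, while the cytoskeleton list spreads from -1.12 to 0.34 over lanes.

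Outside the mitochondrion, several lists were also higher in mt-high cells. Cytosolic ribosomal proteins had 77 of 79 genes above 0 (median log2 0.12 ± 0.05) with 0 calls, and the proteasome 30 of 31 (0.11 ± 0.04) with 0 calls; relative to transcript length these medians were 0.02 and 0.05. Cholesterol synthesis had 17 of 20 genes above 0 (median 0.19 ± 0.26) and 4 called higher, Hmgcs1, Idi1, Fdft1 and Insig1, but its lane medians ran from -0.01 to 0.63. The call of Insig1 was lost without the near-zero cells, where its log2 fold went from 0.34 to 0.27, under the limit of 25%. Naive pluripotency genes had a median of 0.17 ± 0.13, 16 of 21 above 0 and 1 called, Tcl1, an AKT coactivator, at 0.38 ± 0.51. Their members pointed both ways: Nanog was at 0.26 ± 0.31, Esrrb at 0.24 ± 0.35, Pou5f1 at 0.02 ± 0.16 and Lin28a, an RNA-binding protein, at -0.31 ± 0.34, none of them called. The formative and primed list was at -0.04 ± 0.34 (-0.07 without the near-zero cells), with Otx2 and Pou3f1, both transcription factors, called lower; Otx2 was at -0.46, and at 0.95 with the cells ranked into 10 groups. For G1/S and DNA replication 29 of 35 were above 0 (median 0.08 ± 0.11), with 3 called higher, among them Rfc4, a clamp loader subunit, and Msh6, a mismatch repair protein.

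Several lists of signalling, stress and the cytoskeleton had medians below 0, with lanes on both sides of 0. Feedback genes of ERK signalling had a median log2 fold of -0.26 ± 0.19 with 2 of 12 above 0, lane medians from -0.38 to 0.01, and 1 called lower, Dusp4, a MAP kinase phosphatase; among its members with a mean of at least 50 ppm the median was -0.04. Immediate early genes were at -0.17 ± 0.27, with 1 of 10 called lower, Dusp1; their lane medians ran from -0.53 to 0.19, and the median was -0.07 without the near-zero cells and 0.01 in the CAST table alone. The list of cytoskeletal and contractile genes had 1 of 25 above 0 (median -0.34 ± 0.53) and 3 called lower, Actn1, Anxa2 and Lgals1, of which Lgals1 turned to 0.12 with the cells ranked into 10 groups; its lane medians ran from -1.12 to 0.34 and it was -0.16 with groups drawn within lanes and 0.07 with groups drawn within bins of the ribosomal RNA share. The integrated stress response and serine synthesis list was at -0.11 ± 0.13 with 3 of 17 called lower: Trib3, a pseudokinase induced by ATF4, Sesn2, a sestrin, and Ppp1r15a, a regulator of the eIF2 alpha phosphatase. Targets of p53 and apoptosis genes were at -0.13 ± 0.24 with 5 of 24 above 0 and 1 called lower, Sesn2, which is a member of both lists; lane medians ran from -0.46 to 0.15, and the median was -0.06 both without the near-zero cells and with groups drawn within lanes. Of markers of other cell types, the summed trophectoderm list ran from 35.3 through 261 to 13836 ppm in mt-low cells and from 76.9 through 250 to 20356 in mt-high cells, with Krt8 from 0 to 6506 in mt-low and from 0 to 9624 in mt-high cells, and the defining factors Cdx2 and Elf5 at a median of 0 in both. For primitive endoderm, Gata4, Gata6 and Sox17 had medians of 0 in both groups, and 0 of the 9 measured markers were called. In the fibroblast list Col1a1 had a median of 0 in both groups and 0 of the 3 measured markers were called, and in the neural list 0 of 3; the mesendoderm list had 0 measured genes.

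Among single protein-coding genes, Calcoco2 (chr11:96099326-96111964, minus strand) had the highest fold. Its lowest, median and highest values were 0, 15.9 and 452 ppm in mt-low cells and 0, 73.5 and 1623 in mt-high cells. Means over the 4 groups, from the lowest ratios to the highest, were 58.0, 89.2, 159.8 and 141.7 ppm. The fold of the highest over the lowest was 2.44 (log2 1.29 ± 0.61, SD over 5 lanes), from 0.92 in lane 3 to 2.45 in lane 6, and 1.35 without the near-zero cells. Both groups held cells at 0, and the groups overlapped over most of their range. The allele tables gave alike values, 1.27 for 129 and 1.30 for CAST.

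Nlrp4f, an oocyte and early embryo NLR family gene, followed with means over the 4 groups of 34.3, 47.6, 53.8 and 67.9 ppm and a log2 fold of 0.99 ± 0.26, and the allele tables gave 0.40 (129) and 1.07 (CAST). Lmo7, an actin-associated LIM protein, was at 0.66 ± 0.28 and Cobl, an actin nucleator, at 0.60 ± 0.16. Alpl, the alkaline phosphatase by which stem cell colonies are stained, was at 0.47 ± 0.33, with medians of 67.1 and 86.5 ppm. Gstm1, a glutathione transferase, was at 0.57 ± 0.48 and Idi1, an isoprenoid enzyme of cholesterol synthesis, at 0.46 ± 0.50. The other genes among the 12 highest folds were Fgfbp1, Frem2, Ifitm1, Mras and Rfc4, at 0.43 to 0.65; the lane SDs of Fgfbp1, Frem2 and Ifitm1 were as large as their folds.

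**Figure D3:**
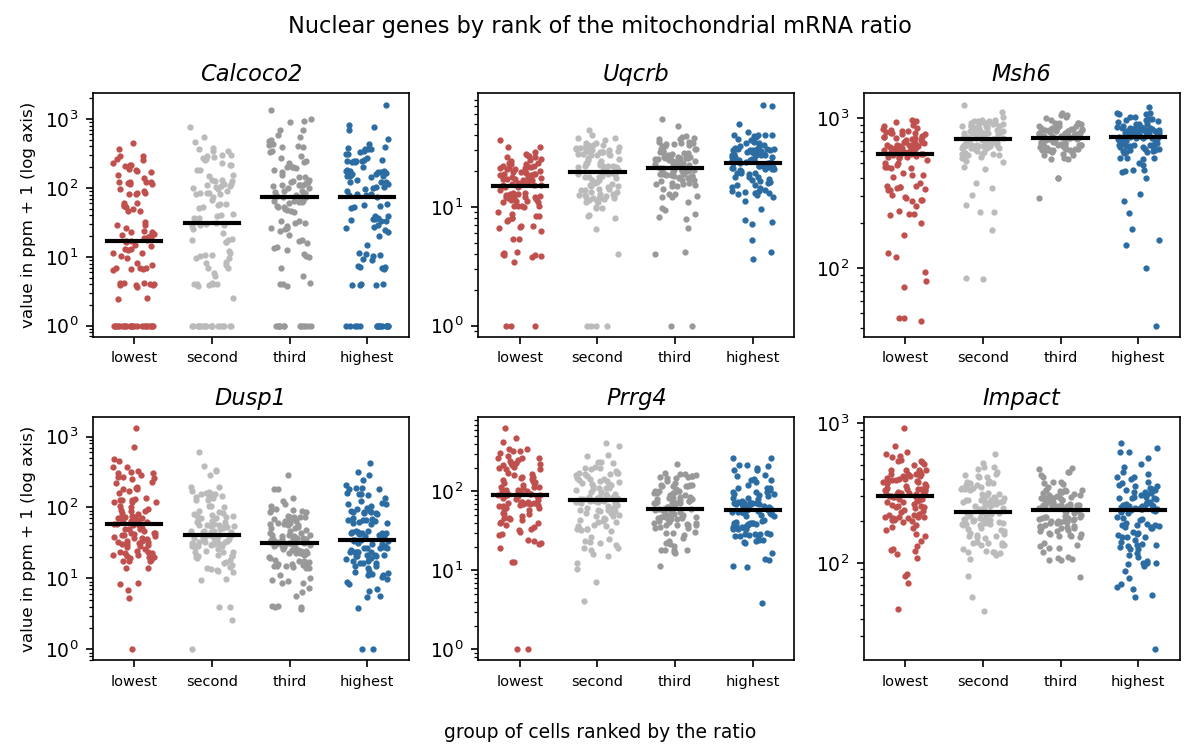
Values in ppm plus 1 (vertical log axes) of 6 nuclear genes in each cell, by group of cells ranked by the ratio (horizontal axes); black bars are medians. The medians of Calcoco2 go from 15.9 to 73.5 and those of Dusp1 from 56.7 to 33.8 ppm between mt-low and mt-high cells, with wide overlap of the cells.

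Lower in mt-high cells was Dusp1 (chr17:26505590-26561499, minus strand), an immediate early MAP kinase phosphatase. Its values ran from 0 through a median of 56.7 to 1310 ppm in mt-low cells and from 0 through 33.8 to 422 in mt-high cells. The means of 114 and 61.8 differed 1.85-fold (log2 -0.89 ± 0.38), and without the near-zero cells the log2 fold was -0.64. Bach1, a heme-sensing repressor, was at -0.84 ± 0.40 and at -0.57 without these cells. Slc16a3 was 1.94-fold lower (-0.96 ± 0.71), with medians of 21.1 and 14.9 ppm. Among cells with a 129 share under 35% beyond 80 Mb of chromosome 12, Slc16a3 was at -0.35 and Bach1 at -0.43. Prrg4, a membrane protein with a Gla domain, was at -0.79 ± 0.44 (medians 90.2 and 56.4), and Map1b, a microtubule-associated protein, at -0.76 ± 0.35 (medians 356 and 226). Fkbp10, Gprc5a, Sox11, Capn2 and Arhgef5 made up the list at -0.73 to -0.91.

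The 2 lowest folds rested on few cells. Tnfrsf22, a decoy receptor, was at log2 -2.00 ± 1.43, but its medians were 60.9 and 50.5 ppm, 1 cell of lane 4 held 14150, and limiting each gene at its 99th percentile left -0.25. Ahnak2 was at -0.96 ± 0.57 with medians of 8.45 and 2.96 ppm, and at -0.23 without the near-zero cells.

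A rank correlation with the ratio over all 419 cells, which does not depend on the limits of the groups, was 0.34 for Uqcrb. It pools the lanes, over which high and low ratios were spread unevenly. Among called protein-coding genes with a mean of at least 20 ppm the 5 highest were those of Msh6 (0.32), Snrpb2 (0.29), Arid5a (0.26), Ncbp2 (0.25) and Skp1a (0.25), and the 5 lowest Prrg4 (-0.22), Med13l (-0.22), Impact (-0.21), Dusp1 (-0.21) and Gja1 (-0.20); all values of a pair come from the same library. Msh6 had lowest, median and highest values of 43.0, 576 and 962 ppm in mt-low cells and 40.1, 742 and 1178 in mt-high cells, a fold of 1.34 (log2 0.42 ± 0.13). Snrpb2, a U2 snRNP protein, and Ncbp2, a subunit of the nuclear cap-binding complex, were at log2 0.39 ± 0.14 and 0.33 ± 0.15. Impact, an inhibitor of the eIF2 alpha kinase GCN2, had medians of 303 and 239 ppm, a log2 fold of -0.37 ± 0.12 and means over the 4 groups of 317, 251, 243 and 246, so mt-low cells stood above the other 3. Over all measured genes the 5th and 95th percentiles of this correlation were -0.11 and 0.15.

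The 9 near-zero cells were low in mitochondrial ribosomal RNA as well as in messenger RNA. mt-Co1 ran from 5.64 through a median of 27.6 to 387.1 ppm in them, against a lowest value of 1201 among the other 410 cells. mt-Rnr1, not used by the ratio, ran from 73.3 through 155 to 898, against a lowest value of 2406, and its mean was 76.4-fold lower; mt-Rnr2 was 79.3-fold lower. Gm28661, the copy of mt-Co2 with 0 differences in the reference, ran from 0 through 12.4 to 84.1, against a lowest value of 271. None of these ranges overlapped with those of the other cells, but mt-Co1 is part of the sum by which the 9 cells were set off. mt-Nd3 and mt-Nd4l, also part of that sum, were listed at 0 in all 9.

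Transcripts above 0 in the near-zero cells numbered 30254 ± 1843 (SD over 9 cells), against 29223 ± 1460 in the other 410 cells, nuclear ribosomal RNA rows took 16.3% ± 2.60 against 15.2% ± 2.46, and the scaled total was 839105 ± 56478 against 927303 ± 60300. Rows of retained introns took 7.00% ± 0.76 of the autosomal total against 6.14% ± 0.74. The nuclear RNAs Malat1 and Neat1 were higher: Malat1 ran from 1391 through 4945 to 11214 ppm against a median of 2020, above it in 8 of 9 cells, and Neat1 from 403 through 1180 to 3650 against 413. Of the 12 measured genes in the list of nuclear noncoding RNAs, only 6 had a log2 fold above 0 in this comparison (median 0.18). The part of these measures in the gene differences that follow was not tested. On distal chromosome 12, 3 of 9 cells had a 129 share under 35%, against 292 of the other 410.

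Against the other cells, 173 of 9615 genes were at least 2-fold higher in the near-zero cells with 8 of 9 cells above the others' median (1.8%), and 1.12% were lower by the same rule. With each of the 9 cells left out in turn, 1.26% to 3.02% were higher and 1.13% to 2.02% lower; the highest values came without a cell of lane 4 with a ratio of 0.0254%, and the lowest without the cell with the lowest ratio. Ahnak2, a giant scaffold protein gene, ran from 22.8 through 375.98 to 1778 ppm against a median of 3.02 (log2 3.79, and 3.02 to 3.95 with single cells left out). Btbd19 ran from 73.1 through 145 to 233 against a median of 39.1, with 7 of 9 cells above the others' 95th percentile of 95.4 (log2 1.68, 1.56 to 1.77). Dusp1 was above the others' median of 38.8 in 9 of 9 cells, from 71.0 through 157 to 1310 (log2 2.18, and 1.42 without the cell with the lowest ratio). That cell had 42.3 ppm of Pou5f1 and weighed on several genes: without it the log2 fold of Sqstm1 went from 2.00 to 0.64, that of Srxn1, a sulfiredoxin, from 2.42 to 0.74 and that of Bach1 from 2.10 to 1.13.

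Lysosomal genes, a list added after values were seen, were higher in the near-zero cells: 10 of 35 were called higher, against 1.8% of all measured genes, and 30 of 35 were above 0, against 50.5% (median log2 0.67, 0.46 to 0.72 with single cells left out). Gaa, the acid alpha-glucosidase, ran from 48.2 through 195 to 467 ppm against a median of 54.6, and Ctsa, a lysosomal carboxypeptidase, from 38.0 through 181 to 520 against 57.8. Targets of p53 and apoptosis genes had a median of 0.51 (0.41 to 0.64) with 21 of 24 above 0 and 1 called, Mdm2, the p53 ubiquitin ligase, at 1.64. Immediate early genes had a median of 0.94 over 10 genes (0.41 to 1.07 with single cells left out), with Dusp1 called. Targets of NRF2, also added after values were seen, had a median of 0.63, and 0.11 without that cell.

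Among genes lower in the near-zero cells, Lin28a ran from 0 through 107.6 to 402 ppm against a median of 420, Ccnd1, cyclin D1, from 0 through 81.9 to 163 against 208, and Eras, an embryonic Ras, from 1.52 through 7.76 to 34.8 against 48.6; 0 of 9 cells reached the others' median in any of the 3. Glycolysis genes had a median log2 fold of -0.62 (-0.77 to -0.52), with Ldha and Slc16a3 called, cholesterol synthesis -0.53 (-0.63 to -0.50), with Insig1 called, and formative and primed genes -0.71 (-0.87 to -0.55), with Lef1 and Utf1 called. Naive pluripotency genes had a median of -0.39, although Klf2 and Klf4 were at 0.87 and 0.75. Complex I subunits were at -0.38, and at -0.12 relative to genes of the same transcript length; for cytosolic ribosomal proteins these values were -0.28 and -0.00.

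**Figure D4:**
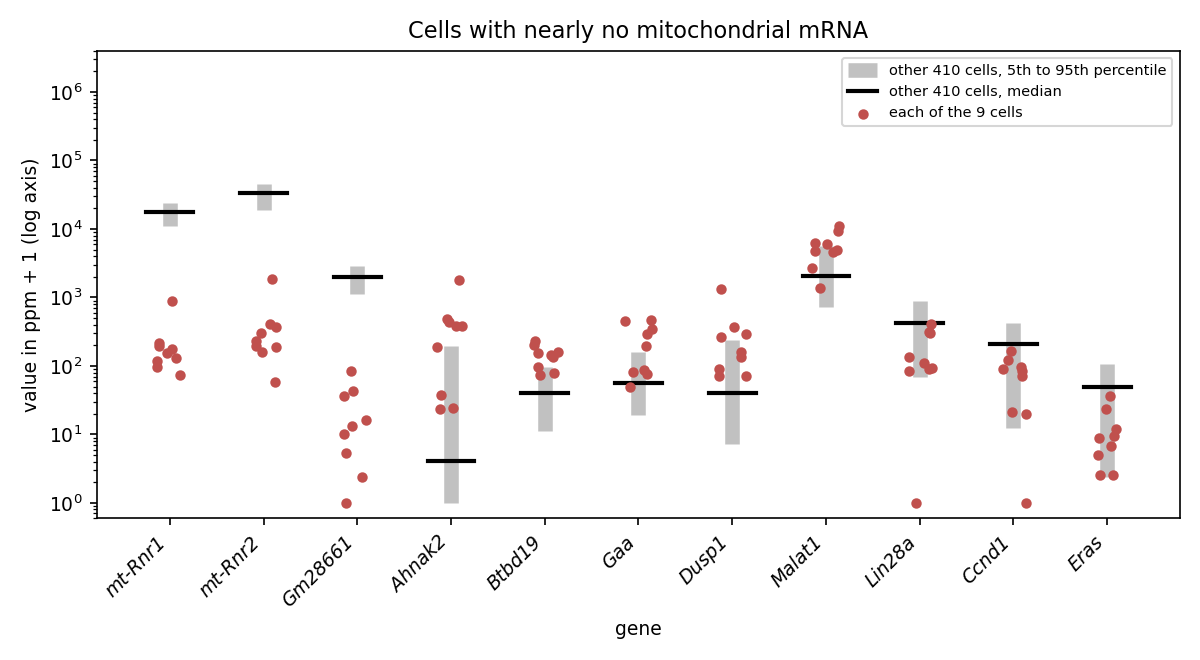
Values in ppm plus 1 (vertical log axis) of 11 genes in each of the 9 near-zero cells (points) and in the other 410 cells (grey bar, 5th to 95th percentile; black bar, median). The mitochondrial ribosomal RNAs and Gm28661 lie far below the others' range, Ahnak2, Btbd19, Gaa, Dusp1 and Malat1 mostly above the others' median, and Lin28a, Ccnd1 and Eras below it.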

How the data were processed

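Single G1 cells were read by RamDA-seq. The authors deposited 2 tables, 1 per allele, with 117762 Ensembl transcripts in rows and 1 column per cell. The deposited values are whole numbers scaled by the authors to nearly common totals, so their unit was taken as a score; count tests were not used and depth in reads is unknown. The submitters' processing notes list Bowtie 1.1.2 and mm10, with no role given. Rows were joined to GENCODE vM21 (116919 matched; the others hold 0.360% of values) and all rows of a gene were summed over both tables. The autosomal total left out Gm26917, CT010467.1, Mir6236 and Lars2. Folds are of group means, calls as given in the report, and near-zero cells were compared with the other 410. Scripts were tested on simulated data. Members, 39 lists and rules were chosen with earlier results of these data known, and 2 lists after values were seen. Named genes are the 12 highest and lowest folds among called protein-coding genes (mean of at least 20 ppm, without predicted symbols or sequence shared with chromosome M), the 5 highest and lowest rank correlations, and up to 4 members of each list; others were picked after their values were seen. Doublets were not searched for, and the main values use all cells. Python 3.11.15, numpy 2.4.6, pandas 2.3.3, scipy 1.17.1 and matplotlib 3.10.9 were used.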

Additional observations from a re-analysis of the deposited data

How the results depend on the processing

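The share of measured genes called higher and lower moved most with the rule itself. It was 0.198% and 0.562% at 1.5-fold, 3.03% and 5.76% with no lane rule, 0.913% and 1.09% at a mean of at least 50 ppm, and 1.59% and 2.47% at a mean of at least 2 ppm. Genes called higher were 0.780% with unscaled values, 0.863% with median-of-ratios size factors, 0.770% with the cells ranked into 3 groups and 2.68% with 10. Groups drawn on mt-Rnr1 and mt-Rnr2 gave 2.95% and 5.62%, and 61 of 128 and 95 of 170 genes called in the report were called there too. Groups drawn within bins of the naive list, chosen after the data were seen, gave 0.634% and 0.978%; without cells low in Pou5f1 0.806% were higher, and without near-zero cells 1.15% of the genes measured then were lower. With 1 lane left out the shares ran from 1.38% to 2.44% and from 2.02% to 5.46%. The cause of these shifts was not tested, apart from the fewer or more genes, lanes or cells that a setting admits. Groups drawn within lanes kept 60 of the 128 and 88 of the 170 calls. With only the cells under a 129 share of 35% on distal chromosome 12, 54 of the 128 and 61 of the 170 were kept. The medians of complex I, complexes II to IV and ATP synthase stayed above 0 in 29 of 29 alternatives. Kept signs are no independent support. The alternatives largely reuse the same cells, and a call already asked for the same direction in each lane. Of 59 called genes, those of the naming rule and the other called members of lists, 57 kept their sign in each alternative that gave a value. Otx2 was at 0.95 with 10 groups of cells, and Lgals1 at 0.12 there, at 0.0089 with groups drawn within bins of the ribosomal RNA share and at 0.065 within bins of the naive list; the cause was not tested. No paired analysis was possible because all cells form 1 group and replicate numbers only name cells. Depth in reads is unknown, and lanes may be technical.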

Other observations

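Markers of the 2-cell embryo were high in a few cells. The 3 cells with the highest sum over that list, at 22447, 4760 and 2564 ppm, were mt-low, with ratios of 0.924%, 1.03% and 1.0997%, and the next cell, at 1362 ppm, lay in the third of the 4 groups with 1.43%. The fifth highest, at 116.7 ppm, had a ratio of 1.39% and lay in the third group too. Among mt-high cells the largest sum was 13.4 ppm. Tnfrsf22 was at 14150 and 2232 ppm in the first 2 of these cells. The 18 cells under 50 ppm of Pou5f1 lay at both ends: 10 among mt-low cells, 5 among mt-high cells (ratios from 1.61% to 2.10%) and 3 between. These cells were picked by their values, so the counts are given as they stand.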
